A study of Mus musculus with 17 samples.

Results

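The 10 genes described here make, sense and remove prostaglandin E2, and they were chosen by symbol from the counts of 21931 genes: Ptgs1, Ptgs2, Ptges, Ptges2, Ptges3, Hpgd, Ptger1, Ptger2, Ptger3 and Ptger4. All 10 were present in the table. They were read in 17 distant tumors of MC38, a mouse colon cancer line, grown under the skin on both sides of wild-type C57BL/6J mice aged 6 to 8 weeks. In the cryoablation group of 8 tumors, the tumor on one side was frozen with a probe on day 7, at 5 to 6 mm in diameter, in cycles that the sample labels give as 20 s. The tumor on the other side, which was not frozen, was sequenced 5 days later. The 9 control tumors carry the same Day 5 label, and the labels do not say whether they had a sham procedure. No drug, transgene or deletion distinguished the groups. The comparison asks whether freezing one tumor was followed by a change of prostaglandin genes in the tumor on the opposite side.

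Prostaglandin E2 is a lipid signal made in steps. Phospholipases free arachidonic acid from membranes, the cyclooxygenases Ptgs1 and Ptgs2 turn it into prostaglandin H2, and the terminal synthases Ptges, Ptges2 and Ptges3 turn that into prostaglandin E2. The lipid acts on cells through the receptors Ptger1 to Ptger4 and is inactivated inside cells by the dehydrogenase Hpgd. In tumors it is known as a signal made by cancer and stromal cells that restrains T cells, natural killer cells and dendritic cells.

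Total counts were 14154687 to 17898672 in control and 13524899 to 16847050 in cryoablation tumors, and 3 counts corresponded to 0.152 to 0.289 CPM, the unit in which counts are scaled to the TMM-adjusted library size. Colon epithelial markers were uneven: Cdx2 had 0 counts in all 17 tumors, and Krt20 and Vil1 stayed under 1 CPM. Krt8 ranged from 0 to 58.8 CPM, Krt18 from 0 to 54.8 CPM, Epcam from 0.482 to 8.67 CPM and Cdh1 from 5.31 to 26.2 CPM. The labels call the cells both colon cancer and mesenchymal. Cryoablation tumors 5, 2 and 4 had the lowest TMM scaling factors, at 0.767, 0.856 and 0.886, so their CPM are raised relative to plain totals. Across 13 lists of cell type markers, 8 had no gene with an unadjusted p under 0.05. The others were erythroid cells, with 4 of 4 tested genes higher after cryoablation (summed 6.16 to 74.7 CPM in control and 25.1 to 174.9 CPM in cryoablation tumors), neutrophils with 2 of 4 higher (7.89 to 68.1 and 7.04 to 55.7 CPM, Ly6g under 1 CPM throughout), adipocytes with 2 of 5 higher (18.4 to 113.5 and 17.2 to 210.2 CPM), epidermis with 1 of 3 higher (182.2 to 443.5 and 204.5 to 664.1 CPM, of which Krt1, Lor and Dsg3 were under 1 CPM) and macrophages with 1 of 6 lower (780.5 to 2225 and 605.1 to 2894 CPM). Their part in the results on prostaglandin genes was not tested.

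Per kilobase of gene length, the distant tumors held far more transcript of the synthases than of the receptors. Mean FPKM over the 17 tumors was 106.6 for Ptges3, 33.1 for Ptges, 16.3 for Ptgs1, 8.64 for Ptgs2 and 4.46 for Ptges2. The receptors and Hpgd lay below 1, at 0.870 for Ptger4, 0.494 for Hpgd, 0.412 for Ptger2, 0.0744 for Ptger3 and 0.0633 for Ptger1. In all 17 tumors the order Ptges3 over Ptges over Ptgs1 held, as did Ptges2 over Ptger4 and Ptger2 over Ptger3. Ptgs1 exceeded Ptgs2 in 16 tumors, the exception being cryoablation tumor 7. The neighbours Ptgs2 and Ptges2 (11 of 17 tumors), Ptger4 and Hpgd (14 of 17), Hpgd and Ptger2 (9 of 17) and Ptger3 and Ptger1 (8 of 17) were not ordered the same way in every tumor.

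**Figure D1:**
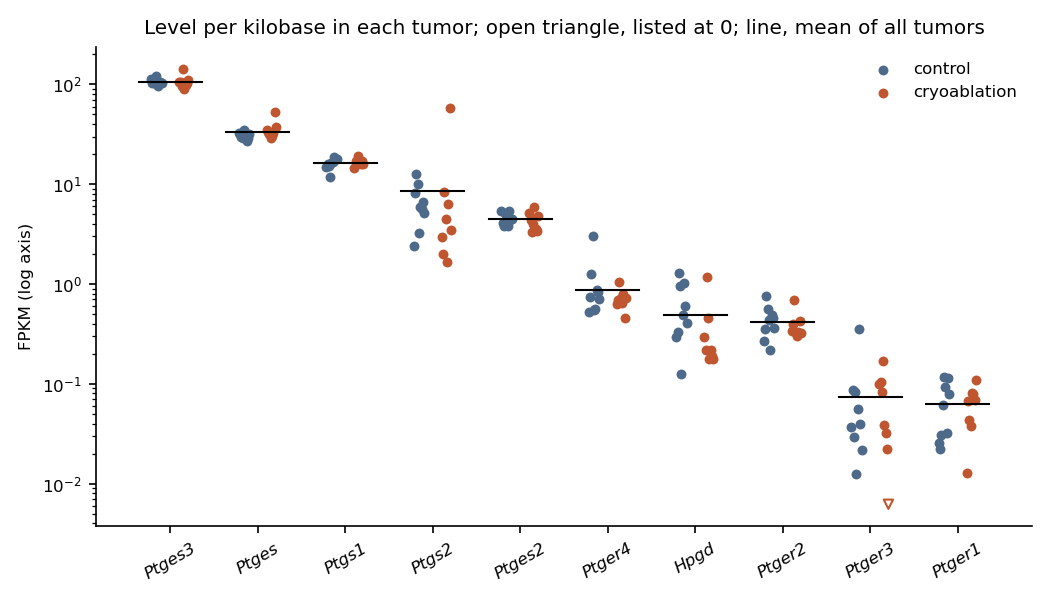
Level per kilobase (FPKM, log axis) of the 10 prostaglandin genes in 9 control (blue) and 8 cryoablation (orange) tumors, 1 dot per tumor, with a line at the mean of all tumors. The 3 terminal synthases and 2 cyclooxygenases lie above the 4 receptors and Hpgd, and 1 cryoablation tumor stands far above the rest for Ptgs2 at 57.8 FPKM.

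In the comparison of the groups, 1 of the 10 genes passed an unadjusted threshold. It was Ptges, which was higher after cryoablation, and it is the terminal synthase that inflammatory signals are known to induce. Of the 10 genes, 8 had enough counts to be tested, and Ptger1 and Ptger3 did not. Hpgd was near that limit, and with 1 tumor left out it was tested in 11 of the 17 fits. An unadjusted p under 0.05 in edgeR's quasi-likelihood test was reached by 1 of the 8, against 4.91% of the 13005 genes tested, and in the higher direction by 3.74% of all genes. A single gene of 8 is no result about these genes as a group. None reached an adjusted p under 0.05, and neither did any other gene tested (0 of 13005 by edgeR, Benjamini-Hochberg). In its results, the study called a gene by DESeq when its log2 fold change exceeded 1 in size at a p below 0.05. Its methods name edgeR and p values adjusted by Benjamini-Hochberg. Read with the unadjusted p of edgeR, that threshold was passed by none of the 8 genes and by 0.492% of all genes. Ptges alone was also called by DESeq2 and by edgeR's exact test, 1 of 8 against 6.77% and 5.97% of all genes, and limma voom with quality weights called Ptges and Hpgd, 2 of 8 against 10.1%. Log2 fold changes of cryoablation over control were above 0 for 5 genes and below 0 for 3, with a median of 0.07, against -0.01 over all genes tested.

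**Figure D2:**
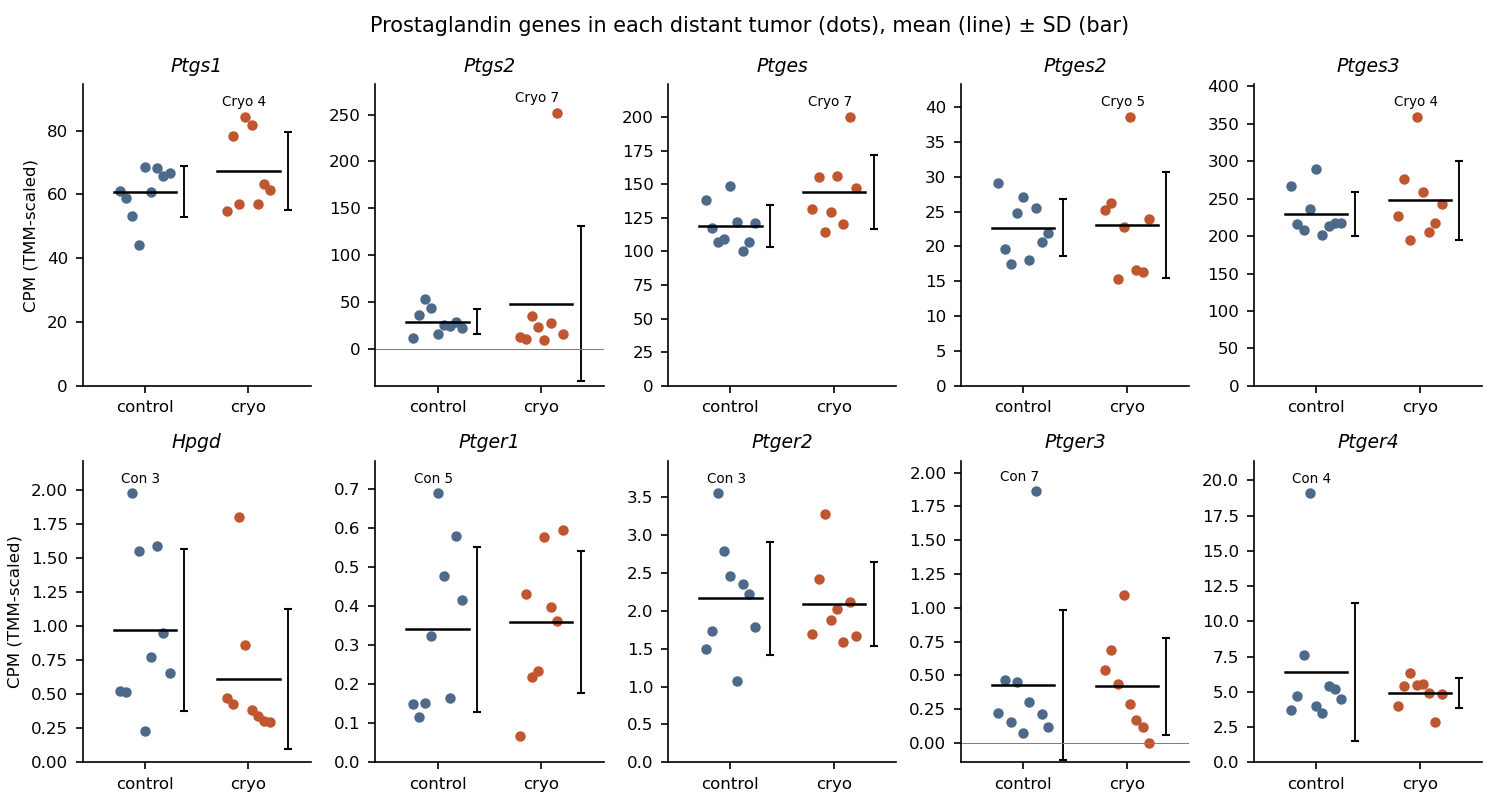
CPM (scaled by TMM) of each of the 10 prostaglandin genes in control (blue, n = 9) and cryoablation (orange, n = 8) tumors, 1 dot per tumor, with a horizontal line at the mean, a bar for the SD and the tumor with the highest value named. The groups overlap for every gene, and single tumors carry the highest values of Ptgs2 (Cryo 7), Ptger3 (Con 7) and Ptger4 (Con 4).

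Ptgs1 (ENSMUSG00000047250), the cyclooxygenase known for steady expression in most tissues, is listed on chromosome 2 from 36120438 to 36142284 on the plus strand. The gene table states no build for its positions, and those of the 10 genes equal the RefSeq GRCm38.p6 positions for 0 of 10. Ptgs1 ranged from 44.1 to 68.7 CPM in the control tumors, with a median of 61.1, and from 54.8 to 84.3 CPM in the cryoablation tumors, with a median of 62.4. The 3 highest values were those of cryoablation tumors 4, 5 and 2, at 84.3, 81.9 and 78.3 CPM, and the groups otherwise overlapped. Mean levels were 60.8 ± 8.01 CPM (SD, n = 9) and 67.3 ± 12.2 CPM (SD, n = 8). The log2 fold change was 0.14 with an SE of 0.11 and did not pass the test (adjusted p = 0.737, edgeR; exact permutation p = 0.242). Without cryoablation tumors 2, 4 and 5 it was -0.06.

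Ptgs2 (ENSMUSG00000032487), the cyclooxygenase induced by cytokines and growth factors, is listed on chromosome 1 from 149975782 to 149983978 on the plus strand. Its value in 1 tumor decided the comparison. Control tumors ranged from 11.7 to 52.7 CPM with a median of 25.3, and cryoablation tumors from 9.84 to 251.9 CPM with a median of 19.5. Cryoablation tumor 7 held 4179 counts of Ptgs2, and no other tumor held more than the 1041 of control tumor 3. The next highest cryoablation tumor was tumor 3, at 34.9 CPM, and the lowest values were in cryoablation tumors 5 and 2, at 9.84 and 10.8 CPM, followed by control tumor 1. Means were 29.0 ± 13.1 CPM (SD, n = 9) and 48.4 ± 82.7 CPM (SD, n = 8), while 3 of the 8 cryoablation tumors exceeded the median of the controls. The edgeR log2 fold change was 0.74 with an SE of 0.58 (adjusted p = 0.737), and it turned to -0.59 without cryoablation tumor 7 (exact permutation p = 0.109), whose absence brought the cryoablation mean to 19.3 ± 9.46 CPM. DESeq2, which replaced that outlying count, gave -0.53 with an SE of 0.30 (adjusted p = 0.677), and without cryoablation tumors 2, 4 and 5 the edgeR value was 1.23. An exact two-sided permutation test of log2 CPM over 24310 splits gave a difference of -0.11 (p = 0.868). A change of Ptgs2 in either direction was therefore not shown.

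In cryoablation tumor 7, the interleukins Il1b and Il1a, known inducers of Ptgs2, were at 109.8 and 17.6 CPM, the highest of the 17 tumors, beside highest values of 59.5 and 8.76 CPM in the control tumors. Tnf, another inducer, was at 6.03 CPM in that tumor, at 3.05 to 6.93 CPM in the cryoablation tumors and 2.02 to 17.9 CPM in the control tumors, and did not pass the test (log2 fold change -0.59, SE 0.31, adjusted p = 0.728, edgeR). Each of the 8 cryoablation tumors was under 7.57 CPM of Tnf, the median of the controls. With 1 tumor left out, the Tnf log2 fold change was -0.71 to -0.34, the latter without control tumor 4. In 1 of those 17 fits the unadjusted p was under 0.05 (0.0134, edgeR). Neither Il1b (log2 fold change 0.50, SE 0.40, adjusted p = 0.739) nor Il1a (0.18, SE 0.46, adjusted p = 0.889) passed the test in edgeR. Without cryoablation tumor 7, the log2 fold changes were 0.03 for Il1b and -0.63 for Il1a. Summed macrophage and T cell markers were lowest of all tumors in cryoablation tumor 7, at 605.1 and 12.2 CPM. By contrast, its summed neutrophil markers were second highest, at 55.7 CPM, with S100a9 the largest part at 27.06 CPM. Retnlg, at 1.99 CPM, lay between the control and cryoablation medians of 1.62 and 2.31 CPM. The mast cell markers of that tumor were sixth, at 19.8 CPM, mostly from Hdc, at 13.98 CPM the highest of the 17 tumors. Cpa3, Cma1 and Tpsb2, at 1.63, 1.02 and 1.21 CPM, were below the medians of both groups. Mcpt4, at 1.93 CPM, lay between the medians of 1.73 and 2.59 CPM. The part of these markers in the Ptgs2 level of cryoablation tumor 7 was not tested.

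Set against Ptgs1 in the same tumor, Ptgs2 was the lesser cyclooxygenase almost throughout. The ratio of Ptgs2 to Ptgs1 in FPKM was 0.162 to 0.846 in control tumors, with a median of 0.353, and 0.102 to 3.37 in cryoablation tumors, with a median of 0.226. Cryoablation tumor 7 alone exceeded 1. The groups did not separate (exact permutation test of the log2 ratio, p = 0.702), also without that tumor (log2 difference -0.74, p = 0.102).

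Ptges (ENSMUSG00000050737), also named microsomal prostaglandin E synthase, works downstream of Ptgs2 and is listed on chromosome 2 from 30779483 to 30819875 on the minus strand. Control tumors ranged from 100.3 to 148.4 CPM with a median of 117.6, and cryoablation tumors from 114.6 to 200.1 CPM with a median of 139.4. The groups overlapped, 7 of the 8 cryoablation tumors lay above the control median, and the highest value was again that of cryoablation tumor 7. Means were 118.8 ± 15.7 CPM (SD, n = 9) and 144.3 ± 27.3 CPM (SD, n = 8). The log2 fold change was 0.28 with an SE of 0.11 (unadjusted p = 0.0213, adjusted p = 0.728, edgeR), and the exact permutation test gave p = 0.0222. As in any bulk sample, more cells that express a gene and more transcript per cell cannot be told apart. The unadjusted call was lost without cryoablation tumor 7 (0.19, p = 0.0659, edgeR; exact permutation p = 0.0492), a fit in which 10.1% of all genes were called, without cryoablation tumors 2, 4 and 5 (0.26, p = 0.0626, edgeR), where 2.45% were, and in the permutation test on CPM without TMM scaling (difference 0.17, exact p = 0.0793).

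The sequences before the annotated starts of the 2 cyclooxygenases and of Ptges are shown because Ptgs2 and Ptges peaked in 1 tumor in which Ptgs1 did not. Each run covers 250 bases before the start and 30 after it, 5′ to 3′ on the strand of the gene, from RefSeq in GRCm38.p6, where 9 of the 10 genes had an entry and Ptger1 did not. Capitals mark matches, on either strand, to any of 5 motifs, namely the half-site CGTCA of the cyclic AMP response element, the E-box CACGTG, the C/EBP palindrome TTGCGCAA, the GC box GGGCGG and the TATA box TATAAA. Ptgs2 lies at chr1:150099781-150100060 on the plus strand, Ptgs1 at chr2:36230176-36230455 on the plus strand and Ptges at chr2:30903268-30903547 on the minus strand.
Ptgs2: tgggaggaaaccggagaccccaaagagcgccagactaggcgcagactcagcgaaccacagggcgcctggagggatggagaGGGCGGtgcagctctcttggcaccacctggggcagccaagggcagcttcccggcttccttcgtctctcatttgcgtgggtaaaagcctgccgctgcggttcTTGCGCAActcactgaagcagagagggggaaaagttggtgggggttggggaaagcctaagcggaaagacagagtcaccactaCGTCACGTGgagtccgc
Ptgs1: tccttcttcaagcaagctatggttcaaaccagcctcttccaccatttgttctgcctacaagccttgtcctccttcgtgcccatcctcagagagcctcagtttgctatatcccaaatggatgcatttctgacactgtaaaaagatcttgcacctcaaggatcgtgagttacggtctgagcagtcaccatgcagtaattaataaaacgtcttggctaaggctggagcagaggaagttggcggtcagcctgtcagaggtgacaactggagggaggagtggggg
Ptges: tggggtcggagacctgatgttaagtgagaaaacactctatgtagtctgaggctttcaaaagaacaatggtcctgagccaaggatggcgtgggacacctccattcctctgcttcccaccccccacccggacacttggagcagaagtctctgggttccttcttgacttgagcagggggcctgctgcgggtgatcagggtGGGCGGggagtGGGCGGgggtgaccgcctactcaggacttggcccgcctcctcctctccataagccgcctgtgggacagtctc
Counting the start base as 1 and the base before it as -1, the Ptgs2 window held GGGCGG from -170, TTGCGCAA from -69, CGTCA from 14 and CACGTG from 17, the last of which overlap. The Ptges window held GGGCGG from -53 and from -42, and none of the 5 motifs matched in the Ptgs1 window. Of 32851 promoter windows of the same length, 34.7% held GGGCGG, 19.9% CGTCA, 13.1% TATAAA, 6.79% CACGTG and 0.18% TTGCGCAA. These matches describe letters and not bound sites.

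The other terminal synthases did not pass the test. Ptges2 (ENSMUSG00000026820, chromosome 2 from 32285908 to 32295784, plus strand), a membrane-associated synthase known for steady expression, ranged from 17.4 to 29.1 CPM (median 21.9) in control and from 15.3 to 38.6 CPM (median 23.4) in cryoablation tumors. Cryoablation tumor 5 stood above all others. Its log2 fold change was 0.02 with an SE of 0.17 (adjusted p = 0.961, edgeR), and -0.23 without cryoablation tumors 2, 4 and 5. Ptges3 (ENSMUSG00000071072, chromosome 10 from 127894823 to 127913141, plus strand), which also serves as p23, a co-chaperone of HSP90, ranged from 201.8 to 289.4 CPM (median 218.1) in control and from 194.5 to 359.3 CPM (median 235.1) in cryoablation tumors. Its highest value was that of cryoablation tumor 4. It had a log2 fold change of 0.11 with an SE of 0.12 (adjusted p = 0.772, edgeR), and -0.09 without cryoablation tumors 2, 4 and 5.

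Hpgd (ENSMUSG00000031613, chromosome 8 from 56747620 to 56774078, plus strand), the enzyme that inactivates prostaglandin E2, was scarce, with 3 to 39 counts per tumor. Control tumors ranged from 0.230 to 1.98 CPM with a median of 0.777, and cryoablation tumors from 0.298 to 1.80 CPM with a median of 0.408. Cryoablation tumor 3 lay far above the other 7, of which the highest was at 0.859 CPM, and 6 of the 8 cryoablation tumors were below the control median. Means were 0.975 ± 0.594 CPM (SD, n = 9) and 0.612 ± 0.514 CPM (SD, n = 8). In edgeR, the log2 fold change was -0.66 with an SE of 0.44 (adjusted p = 0.728; exact permutation p = 0.147). It was -1.16 without cryoablation tumor 3 (unadjusted p = 0.0103, edgeR) and -0.95 in limma voom with quality weights (unadjusted p = 0.0319).

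Of the receptors, those coupled to cyclic AMP, Ptger4 and Ptger2, were detected in all 17 tumors. Ptger4 (ENSMUSG00000039942, chromosome 15 from 5236142 to 5273668, minus strand) is the receptor known on T cells and macrophages. It ranged from 3.53 to 19.1 CPM (median 4.68) in control and from 2.89 to 6.33 CPM (median 5.16) in cryoablation tumors. Control tumor 4 was the sole tumor above 7.65 CPM, and 6 of the 8 cryoablation tumors exceeded the median of the controls. Their mean was nevertheless lower, at 4.93 ± 1.07 CPM (SD, n = 8) beside 6.43 ± 4.91 CPM (SD, n = 9). Its log2 fold change was -0.38 with an SE of 0.31 (adjusted p = 0.739, edgeR; exact permutation p = 0.602) and 0.01 without control tumor 4. That tumor also held the highest summed markers of T cells (85.5 CPM), fibroblasts (6770 CPM), endothelium (188.6 CPM), neutrophils (68.1 CPM), mast cells (56.4 CPM) and platelets (151.9 CPM). Within the platelet sum, Pf4 was at 140.2 CPM, whereas Itga2b, at 7.57 CPM, was the lowest of the 17 tumors. Of the fibroblast genes, Col1a1 and Col1a2 were at 2911 and 2770 CPM. Dcn and Pdgfrb, at 830.1 and 101.0 CPM, were below the control medians of 886.3 and 149.9 CPM. The part of these markers in the Ptger4 level of control tumor 4 was not tested. Listed on the opposite strand, Ttc33 overlaps Ptger4 by 11676 bases, and since the strand setting of the counting is not given in the sources used here, reads of the overlap cannot be assigned with certainty.

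Ptger2 (ENSMUSG00000037759, chromosome 14 from 45225652 to 45241277, plus strand) ranged from 1.08 to 3.55 CPM (median 2.22) in control and from 1.59 to 3.28 CPM (median 1.95) in cryoablation tumors. Its groups overlapped almost fully, with a log2 fold change of -0.05 and an SE of 0.23 (adjusted p = 0.928, edgeR). In FPKM, Ptger4 exceeded Ptger2 in all 17 tumors, by a ratio of 1.27 to 5.36 in control and 1.07 to 2.40 in cryoablation tumors (exact permutation test of the log2 ratio, p = 0.510).

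Ptger1 and Ptger3, the receptors known to raise calcium and to lower cyclic AMP, were close to the detection limit. Ptger1 (ENSMUSG00000019464, chromosome 8 from 84393307 to 84399382, plus strand) had 1 to 11 counts per tumor, above 3 counts in 11 of 17 tumors, and means of 0.341 ± 0.212 CPM (SD, n = 9) in control and 0.361 ± 0.182 CPM (SD, n = 8) in cryoablation tumors (exact permutation p = 0.781). Ptger3 (ENSMUSG00000040016, chromosome 3 from 157272529 to 157351525, plus strand) had above 3 counts in 9 of 17 tumors. Control tumor 7 held 34 counts, and cryoablation tumor 8 held 0 counts, which allows up to 0.179 CPM. Mean levels were 0.429 ± 0.555 CPM (SD, n = 9) and 0.418 ± 0.356 CPM (SD, n = 8), a difference that was not detectable at this depth (exact permutation p = 0.922).

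**Figure D3:**
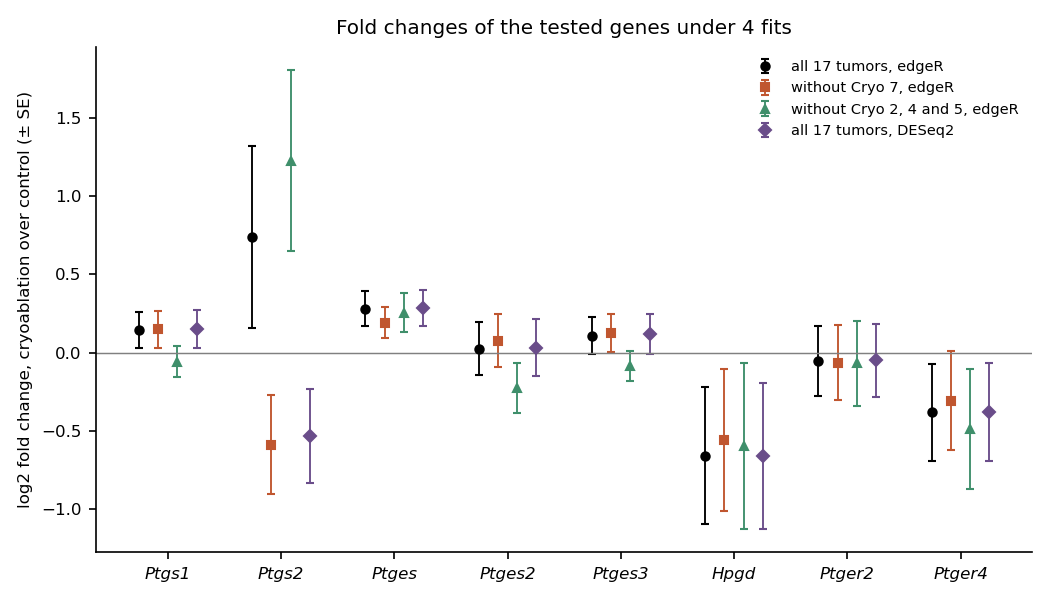
Log2 fold change of cryoablation over control with its SE for the 8 tested prostaglandin genes, from edgeR on all 17 tumors, edgeR without cryoablation tumor 7, edgeR without cryoablation tumors 2, 4 and 5, and DESeq2 on all tumors. Ptges stays above 0 in the 4 fits, at 0.28, 0.19, 0.26 and 0.29, whereas Ptgs2 lies at 0.74, -0.59, 1.23 and -0.53.

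Across the tumors, the synthase Ptges and the inactivating enzyme Hpgd varied in opposite directions. Over 17 tumors, log2 CPM of the pair gave r = -0.77 (permutation p = 0.0003, adjusted p = 0.0084) and rho = -0.81 (permutation p = 8e-05, adjusted p = 0.0022), adjusted over the 28 pairs of the 8 tested genes. The r was -0.89 within the control group, -0.62 within the cryoablation group, and -0.80 without cryoablation tumors 7 and 5, the 2 farthest from the median of Ptges. Hpgd rests on 3 to 39 counts per tumor. Ptgs2 and Ptges2 also varied in opposite directions, with r = -0.71 (permutation p = 0.0019, adjusted p = 0.0262) and rho = -0.79 (permutation p = 0.0003, adjusted p = 0.0041). Within the groups r was -0.68 and -0.72, and it was -0.68 without cryoablation tumors 7 and 5. Of the 28 pairs, these 2 had both adjusted p values under 0.05. Ptgs2 and Ptges, the enzymes known to act in sequence, gave r = 0.08 (permutation p = 0.754, adjusted p = 0.845) but rho = -0.55 (permutation p = 0.0247, adjusted p = 0.0769), and r was -0.81 without cryoablation tumors 7 and 5. The pooled r of that pair rests on those tumors.

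The prostaglandin genes also varied with markers of the cells in the tumor. Ptger4 followed the T cell markers (mean log2 CPM of the 5 listed genes that were tested) with r = 0.83 (permutation p = 2e-05, adjusted p = 0.0021) and rho = 0.83 (permutation p = 9e-05, adjusted p = 0.0038), adjusted over 104 relations of 8 genes with 13 marker lists. The r was 0.93 in control tumors, 0.78 in cryoablation tumors and 0.69 without control tumor 4 and cryoablation tumor 7. Its relation with macrophage markers, r = 0.77 (permutation p = 0.0003, adjusted p = 0.0057) and rho = 0.65 (permutation p = 0.0056, adjusted p = 0.0324), fell to an r of 0.47 without those 2 tumors. Hpgd followed the endothelial markers, with r = 0.80 (permutation p = 0.0002, adjusted p = 0.0033), rho = 0.73 (permutation p = 0.0012, adjusted p = 0.0113), and r of 0.82 in control, 0.76 in cryoablation tumors and 0.69 without control tumor 3 and cryoablation tumor 3. Ptges ran against them, with r = -0.65 (permutation p = 0.0045, adjusted p = 0.0294), rho = -0.79 (permutation p = 0.0003, adjusted p = 0.0067), and r of -0.81, -0.53 and -0.77 in control tumors, in cryoablation tumors and without cryoablation tumors 7 and 5. Ptgs1 followed the epidermal list, with r = 0.79 (permutation p = 5e-05, adjusted p = 0.0026), rho = 0.75 (permutation p = 0.0010, adjusted p = 0.0113), r of 0.79 and 0.77 within the groups, and 0.75 without control tumor 4 and cryoablation tumor 4. Of the 3 listed genes tested, Krt14 was at 180.1 to 652.3 CPM, Krt10 at 1.81 to 7.06 CPM and Krt5 at 0 to 4.05 CPM. In all, 19 of the 104 relations had both adjusted p values under 0.05. Tumors share depth and TMM scaling, which enter every measure of a tumor.

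**Figure D4:**
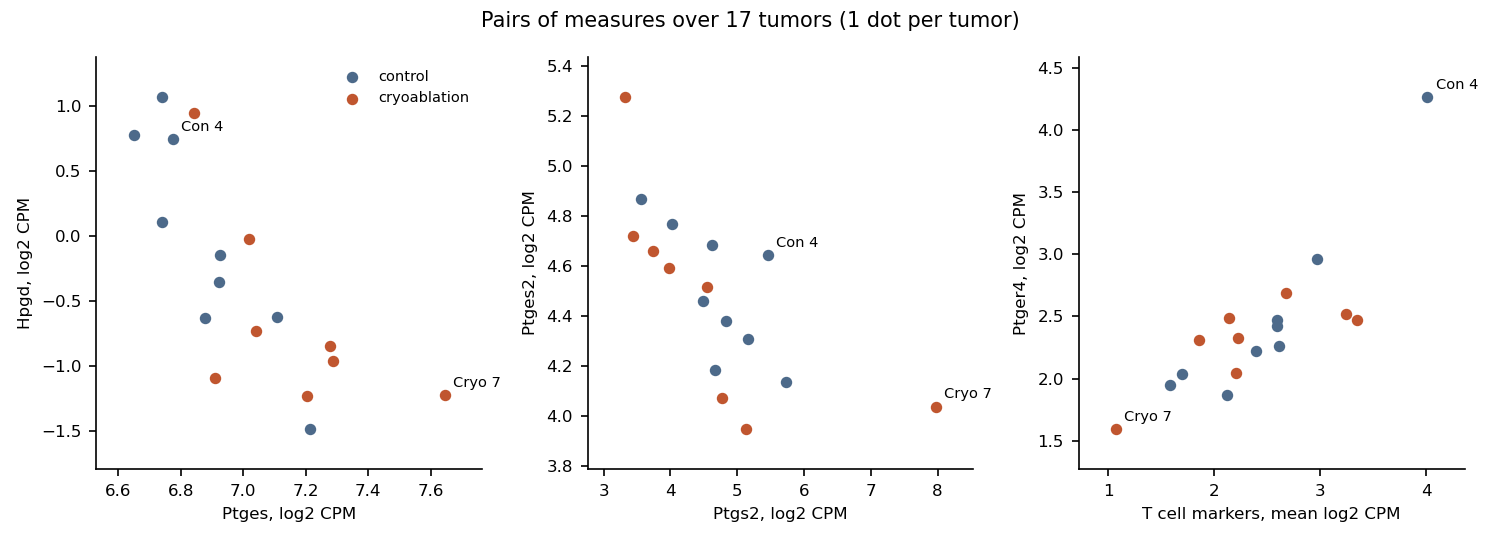
Pairs of measures over 17 tumors on log2 CPM axes, 1 dot per tumor, control in blue and cryoablation in orange: Hpgd against Ptges, Ptges2 against Ptgs2, and Ptger4 against the mean of the T cell markers. The first 2 pairs fall (r of -0.77 and -0.71) and the third rises (r = 0.83), with control tumor 4 and cryoablation tumor 7 at its ends.

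Ranked over 12966 genes that averaged 10 counts or more, the genes whose order over the 17 tumors was most like that of Ptgs2 were Ern1, Eaf1 and Chuk, with Spearman's rho of 0.97, 0.97 and 0.97. For Ptgs1 they were Fbxo25, Rhou and Ado (0.87, 0.86 and 0.86), for Ptges Gpi1, Aldh3a1 and Zfp90 (0.90, 0.89 and 0.89), and for Ptger4 Ly9, Gimap3 and Gng2 (0.95, 0.93 and 0.92). These are the highest values out of all genes and carry no test.

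The other genes of the eicosanoid pathway were read from a list of 46, of which 44 were in the table and 30 were tested. In edgeR's quasi-likelihood test, 3 of the 30 reached an unadjusted p under 0.05, against 4.91% of all genes, and all 3 were lower after cryoablation, against 1.17% of all genes in that direction. The threshold of the study was passed by 1, against 0.492%. None reached an adjusted p under 0.05. Their median log2 fold change was -0.06. Of the 7 tested genes that release arachidonic acid, none passed, among them Pla2g4a, the cytosolic phospholipase that supplies the cyclooxygenases, at 56.9 ± 7.96 CPM (SD, n = 9) and 49.4 ± 17.2 CPM (SD, n = 8). Pla2g4a was highest in cryoablation tumor 7, at 75.0 CPM, and its log2 fold change was -0.20 with an SE of 0.18. Pla2g15, a lysosomal phospholipase, was the highest of the 7 per kilobase, at 21.4 FPKM. Its log2 fold change was -0.10 with an SE of 0.10, and -0.03 without control tumor 4.

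None of the 7 tested terminal synthases of other prostanoids passed either. Log2 fold changes were -0.05 (SE 0.20) for Tbxas1, the thromboxane synthase, 0.35 (SE 0.52) for Ptgis, the prostacyclin synthase, and 0.19 (SE 0.18) for Akr1b3, the highest of them per kilobase at 15.7 FPKM. Ptgds, which makes prostaglandin D2, was too low to test. The transporters Slco2a1, which takes prostaglandins up, and Abcc4, which exports them, had log2 fold changes of 0.08 (SE 0.18) and -0.32 (SE 0.27). The 3 tested reductases did not pass, with Zadh2 the highest per kilobase at 19.1 FPKM and a log2 fold change of -0.10 (SE 0.14).

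Ptgir, the prostacyclin receptor, was the gene called among the 3 tested receptors of other prostanoids. It was at 1.87 to 9.51 CPM (median 4.602) in control and 2.22 to 5.06 CPM (median 2.64) in cryoablation tumors, and 7 of the 8 cryoablation tumors lay below the control median. The log2 fold change was -0.58 with an SE of 0.27 (unadjusted p = 0.0476, adjusted p = 0.728, edgeR; exact permutation p = 0.0839). The unadjusted call was lost in 10 of the 17 fits that left out 1 tumor, and without control tumor 4 the value was -0.41. Among 8 tested genes of the leukotriene and lipoxygenase branch, Alox5 and Alox15 were called, and Lta4h, which makes leukotriene B4, was the highest per kilobase at 16.97 FPKM with a log2 fold change of 0.15 (SE 0.13). Alox5, the enzyme that starts leukotriene synthesis, was at 4.33 to 13.8 CPM (median 6.35) in control and 3.13 to 6.11 CPM (median 4.41) in cryoablation tumors. In each of the 8 cryoablation tumors it was under the median of the controls (log2 fold change -0.57, SE 0.22, unadjusted p = 0.0194, adjusted p = 0.728, edgeR; exact permutation p = 0.0226). Without control tumor 4 it was -0.37 (unadjusted p = 0.0471, edgeR). Alox15, a lipoxygenase of macrophages and eosinophils, was at 1.08 to 35.0 CPM in control and 0.603 to 5.47 CPM in cryoablation tumors. Its log2 fold change of -1.53 with an SE of 0.66 (unadjusted p = 0.0325, adjusted p = 0.728, edgeR; exact permutation p = 0.191) became -0.56 without control tumor 4 (p = 0.257, edgeR), and its call was lost in 5 of the 17 fits that left out 1 tumor. The macrophage marker Adgre1 was at 238.7 CPM in control tumor 4, beside control and cryoablation medians of 59.8 and 51.6 CPM. The markers C1qa and C1qb were at 666.0 and 506.2 CPM there, beside control medians of 418.7 and 360.8 CPM. By the summed macrophage markers, that tumor had rank 3 from the highest. The part of macrophages in these values was not tested.

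**Figure D5:**
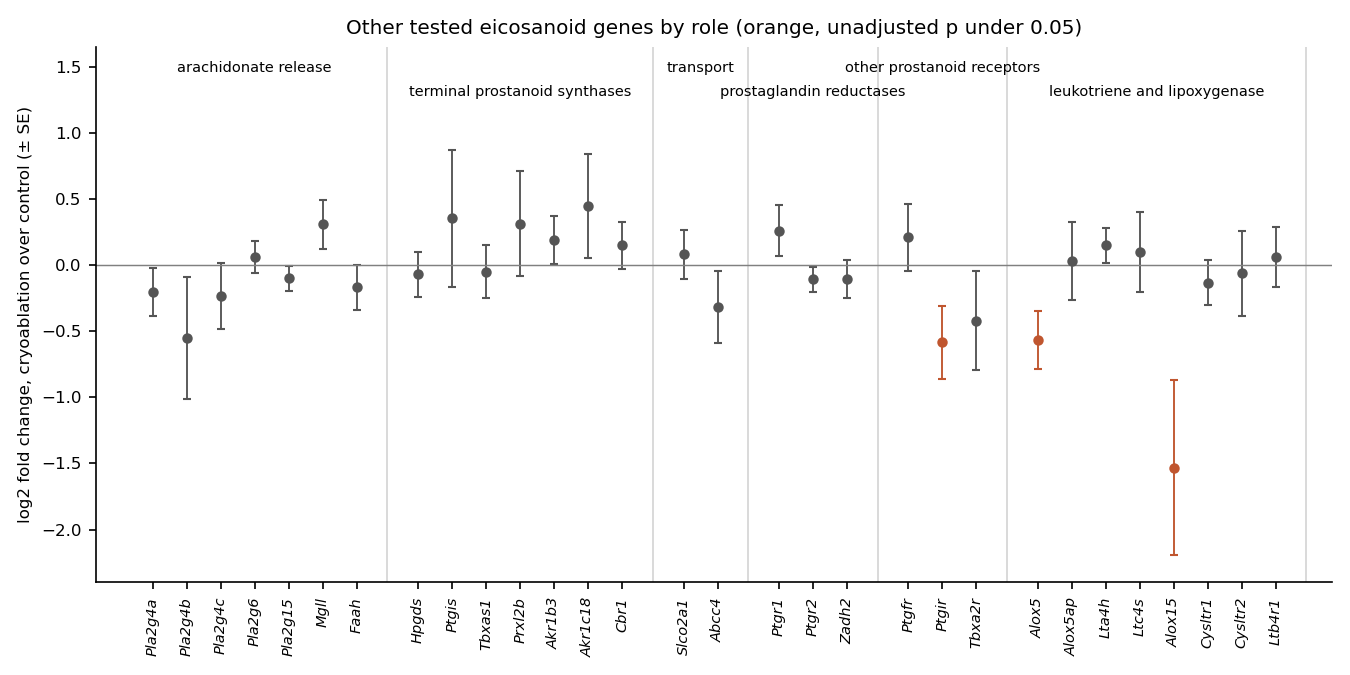
Log2 fold change of cryoablation over control with its SE (edgeR, n = 9 and 8 tumors) for the 30 other eicosanoid genes tested, grouped by role. The 3 genes in orange, Ptgir, Alox5 and Alox15, had an unadjusted p under 0.05, and none of the 30 had an adjusted p under 0.05.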

How the data were processed

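The mRNA of 9 control and 8 cryoablation tumors was taken up on magnetic beads and sequenced on a NovaSeq instrument. The authors deposited raw read counts per gene, FPKM and gene lengths for 21931 genes in each tumor. From these counts, gene length and total count, the deposited FPKM could be recomputed. The aligner, counter and strandedness are not given in the sources used here, and the submitters' processing notes name GRCm38 and mm10, which the listed positions of the genes do not match. Groups follow the labels, whereas the text of the study gives the group sizes the other way round and its methods a longer freezing cycle. All columns mapped to a sample by its title, and no 2 tumors had the same counts. The labels do not say that each tumor came from a separate mouse, so p values measure the spread between these tumors. Counting intervals and floors cover counting error only.

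Counts were tested with edgeR 4.0.16 in R 4.3.3 (TMM, filterByExpr by group, quasi-likelihood F test, group as the only term), with Benjamini-Hochberg adjustment over 13005 genes. The SE is the log2 fold change over the square root of F. Single genes were compared on log2 CPM (prior count 2) by exact permutation, two-sided, over 24310 splits (smallest p 4.11e-05), and correlations by 100000 permutations with Python 3.11.15. Alternatives were DESeq2 1.42.0, limma 3.58.1 voom with quality weights, the exact test of edgeR, other scalings and filters, a gene length offset (splines of 4 degrees of freedom), a replicate block and left-out tumors. Named were the 10 genes, other eicosanoid genes by role (those with p under 0.05, the highest per kilobase and 5 fixed enzymes and transporters), the inducers, the 3 genes most like 4 members, and any with an outlying tumor. The members and lists were chosen with earlier results of these data known.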

Additional observations from a re-analysis of the deposited data

Results flagged for a closer look

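In a group of 9 or 8 tumors, the highest or lowest tumor was singled out when its gap to the nearest other tumor, divided by the range of the group, passed Dixon's 95% critical value. Chance does so in about 1 in 20 groups of normally distributed values. CPM, many of them from low counts, need not be so distributed, so that rate is no yardstick here. Of the 105 groups examined, 25 passed it, among them 5 of the 20 of prostaglandin genes, a like share. For the prostaglandin genes, these tumors were cryoablation tumor 7 for Ptgs2, at 252 CPM, cryoablation tumor 5 for Ptges2, at 38.6 CPM, cryoablation tumor 3 for Hpgd, at 1.80 CPM, control tumor 7 for Ptger3, at 1.86 CPM, and control tumor 4 for Ptger4, at 19.1 CPM. Cryoablation tumor 7 also stood apart for Il1b, at 109.8 CPM, and Il1a, at 17.6 CPM. Among the other eicosanoid genes and the inducers, control tumor 4 stood apart for Pla2g15 (94.5 CPM), Ptgis (14.7 CPM), Tbxas1 (45.6 CPM), Alox5 (13.8 CPM), Alox15 (35.0 CPM), Tnf (17.9 CPM), Ltb4r1 (17.5 CPM), Prxl2b (13.0 CPM), Alox5ap (10.2 CPM), Alox12e (1.23 CPM), Ltb4r2 (0.647 CPM) and Pla2g5 (0.518 CPM). Control tumor 1 stood apart for Ptgdr2 (0.822 CPM) and, as the lowest, for Ptgfr (0.299 CPM), and control tumor 7 for Alox12b (0.329 CPM). Of the cryoablation tumors, tumor 1 stood apart for Ptgds (0.678 CPM), tumor 2 for Pla2g2e (0.775 CPM) and tumor 3 for Alox12b (0.273 CPM).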

How the results depend on the processing

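Counts of 3 to 39 for Hpgd and under 35 for Ptger1 and Ptger3 limit what can be said of them, and no scaling moved the median of all genes by over 0.1. Of the prostaglandin genes, 1 had an unadjusted p under 0.05, against 0 without cryoablation tumors 2, 4 and 5 and 2 by limma voom. Of the other eicosanoid genes it was 3, against 1 without those tumors and 5 with no filter on low counts, and 1 passed the threshold of the study, against 3 with no filter. Over all genes, 639 had an unadjusted p under 0.05, against 325 without those 3 tumors, 1312 by limma voom and 992 with no filter. The 64 past the threshold of the study became 39 with the length offset and 432 with no filter. With 1 tumor left out, these counts ranged from 0 to 2 (unadjusted) and 0 to 1 (study) for the prostaglandin genes, from 1 to 3 and 0 to 1 for the other eicosanoid genes, and from 252 to 1388 and 34 to 165 for all genes, and 0 passed the adjusted p in any of these fits.

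Shared replicate numbers did not pair the tumors: the deviations of same-numbered tumors correlated from -0.51 to 0.64, and 2 of 8 numbers matched their own partner best. With the replicate block, 1 of the other eicosanoid genes had an unadjusted p under 0.05, 0 passed the threshold of the study, and 33 of all genes did. The block gave -0.26 for Ptgs2, -0.025 for Ptges2 and -0.12 for Il1a, against 0.27 for Ptges (unadjusted p = 0.0455, edgeR).

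Directions turned without cryoablation tumors 2, 4 and 5 for Ptgs1 (-0.058), Ptges2 (-0.23), Ptges3 (-0.087), Pla2g4a (0.075), Ptgis (-0.56), Akr1b3 (-0.20), Zadh2 (0.093) and Lta4h (-0.083). By limma voom they turned for Ptgs1 (-0.075), Ptgs2 (-0.37), Ptges2 (-0.0077), Slco2a1 (-0.24) and Il1a (-0.27), by DESeq2 for Ptgs2 (-0.53), and with the length offset for Ptger2 (0.013) and Tbxas1 (0.12). In the permutation test they turned without TMM for Ptges3 (-0.0078) and Ptger3 (-0.035), and for Ptger3 with a prior count of 0.5 (-0.049) and variance-stabilized values (-0.0054). Leaving out 1 tumor turned log2 fold changes of Ptgs2 (-0.59 to 0.90), Ptges2 (-0.12 to 0.092), Ptger2 (-0.18 to 0.061), Ptger4 (-0.47 to 0.014), Il1a (-0.63 to 0.41), Ptgis (-0.0096 to 0.88), Slco2a1 (-0.0096 to 0.14) and Tbxas1 (-0.13 to 0.080). It also turned permutation differences of Ptgs2 (-0.59 to 0.073), Ptges2 (-0.13 to 0.061), Ptger1 (-0.015 to 0.26), Ptger2 (-0.12 to 0.079), Ptger3 (-0.16 to 0.32) and Ptger4 (-0.27 to 0.031). The causes were not tested.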
